A study of Rattus norvegicus with 4 samples.

Results

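The comparison set a blood library named MSC-i.v against one named Sham, from a rat study of mesenchymal stromal cells (MSCs) after spinal cord injury. MSC-i.v came from rats given umbilical cord MSCs into a vein at 30000000 cells/kg, 2 times, at 72 hours and on day 7 after injury, and Sham from the control group. The study assigned 40 rats to 4 groups of 10. Its design text counts Sham among the rats injured by Allen's method, a weight-drop contusion of the cord, and describes no sham operation. The MSC-i.v rats carried both the injury and the MSCs, so injury, treatment and the making of the library cannot be told apart here. How many rats gave blood to each library, when it was drawn and the species of the MSCs are not stated in the labels. The names of both deposited data sets carry a tag of 24 hours, and the labels do not give its meaning. All barcodes with at least 500 UMIs (unique molecular identifiers, each 1 captured transcript), at least 200 genes and at most 20% mitochondrial UMIs were members. These were 26923 of the 45986 such barcodes in the 4 libraries, 16691 in MSC-i.v and 10232 in Sham.

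Umbilical cord MSCs are fibroblast-like cells that release immune mediators and lodge largely in the lung after intravenous infusion. Lymphocytes exposed to interferon gamma switch on *Irf1*, a transcription factor, and the immunity-related GTPases, while type I interferons induce antiviral genes such as *Isg15*. Heat shock chaperones are induced by the factor HSF1 when proteins misfold. Platelets and maturing red cells carry RNA without a nucleus and share blood preparations with leukocytes.

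Only 1 library stood on each side, so no value below has a replicate check, no test between the groups was possible, and all intervals are 95% intervals that cover counting error only. The libraries held 71648050 UMIs (Sham) and 91124523 UMIs (MSC-i.v), and the median kept barcode had 5031.5 and 3808 UMIs. They shared 48 kept barcodes, where 25.1 would be shared between random draws of the same sizes from the list of barcodes. Removing the barcodes most likely to be doublets took 8.19% of Sham and 13.4% of MSC-i.v and left 9394 and 14462 cells. Hemoglobin transcripts made up 23.4% of UMIs in kept Sham cells and 31.1% in MSC-i.v, and 18.9% and 24.2% in barcodes of 10 to 100 UMIs, which stand for free RNA. Where useful, the level in that free RNA is given beside a gene, as CPM (UMIs of the gene scaled to a fixed total of the class or library), as are levels from MSC-i.t, the library of rats given 10000000 cells/kg into the spinal canal. MSC-i.t shares the Sham control and differs in dose, so its values stand side by side without a comparison.

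Cells were grouped by expression into classes named from marker genes. The summed level of a class's own markers was similar on both sides. The 9 T cell markers summed to 3055 CPM in Sham and 2987 in MSC-i.v in T-like cells, the 10 B cell markers to 5947 and 5607 in B-like cells, and the 10 NK (natural killer) markers to 14740 and 14720 in NK-like cells. The 14 monocyte markers gave 44900 and 39140 CPM in monocyte-like cells. Leukocytes were mostly lymphocytes in both libraries. Neutrophil-like cells numbered 10 in Sham and 21 in MSC-i.v, too few to describe.

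T-like cells took close shares in both libraries, while platelet-like, precursor B-like and *Fcnb*-led monocyte-like cells took smaller shares in MSC-i.v and erythroid-like cells a larger one. T-like cells were 61.5% of leukocytes in Sham (60.4 to 62.6, exact Clopper-Pearson interval, 4653 of 7566) and 61.2% in MSC-i.v (60.3 to 62.1, 6928 of 11327). B-like cells were 22.5% in Sham (21.6 to 23.5) and 25.0% in MSC-i.v (24.2 to 25.8), a log2 ratio of 0.15. NK-like cells were 3.30% in Sham (2.91 to 3.73) and 2.60% in MSC-i.v (2.32 to 2.92). An unnamed cluster of 184 cells in Sham and 218 in MSC-i.v scored highest for NK markers, but too close to T cell markers for a name. It is in neither share. The intervals overlapped for T-like cells, met at their edges for NK-like cells (log2 ratio -0.34, from -0.58 to -0.10) and did not overlap for B-like cells. In MSC-i.t the shares were 71.1% for T-like, 20.3% for B-like and 2.29% for NK-like cells. Within B-like cells, a cluster with *Cd24* among its leading genes was 5.87% of leukocytes in Sham (444 cells) and 3.18% in MSC-i.v (360 cells), a log2 ratio of -0.88, but *Cd24* itself differed within that cluster, so its size rests in part on a gene compared below. Basophil or mast-like cells numbered 14 and 5, too few to describe.

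Monocyte-like cells fell into a cluster led by *Fcgr3a*, a marker of patrolling monocytes, and one led by *Fcnb*, a ficolin of classical monocytes. The *Fcgr3a*-led cluster was 6.60% of leukocytes in Sham (6.05 to 7.18) and 7.47% in MSC-i.v (6.99 to 7.97). The *Fcnb*-led cluster was 4.36% in Sham (3.91 to 4.85, 330 cells) and 2.68% in MSC-i.v (2.39 to 3.00, 304 cells), beside 1.37% in MSC-i.t, a log2 ratio of MSC-i.v to Sham of -0.70 (-0.92 to -0.48). This difference depended on doublet removal. The ratio was -0.43 with no doublets removed and -0.41 with an equal 6% removed from each library. Precursor B-like cells, which normally stay in the marrow, were 1.10% in Sham (0.875 to 1.36, 83 cells), 0.477% in MSC-i.v (0.358 to 0.622, 54 cells) and 0.396% in MSC-i.t (33 cells).

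Erythroid-like cells, named from hemoglobin and late erythroid genes, were 11.7% of all kept cells in Sham (11.1 to 12.4) and 16.9% in MSC-i.v (16.3 to 17.6), against 9.82% in MSC-i.t, a log2 ratio of 0.53 (0.44 to 0.63). Most of that difference was in 1 of 3 erythroid-like clusters, led by *Hbb*, at 6.63% in Sham and 11.2% in MSC-i.v (log2 ratio 0.75, from 0.62 to 0.88). A cluster led by *Ifit1bl* was at 4.14% and 4.67%, and the last, also led by *Hbb*, at 0.926% and 1.11%, and the intervals of both ratios included 0. Platelet-like cells were 1.78% in Sham (1.52 to 2.07, 167 cells) and 0.608% in MSC-i.v (0.488 to 0.749, 88 cells), against 1.17% in MSC-i.t, a log2 ratio of -1.55 (-1.92 to -1.18). A further cluster, which scored highest for T cell markers but was led by platelet genes, was left unnamed. It held 4.02% of kept cells in Sham and 2.63% in MSC-i.v. Fewer platelets and platelets that pass the filter less often cannot be told apart in these counts.

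**Figure D1:**
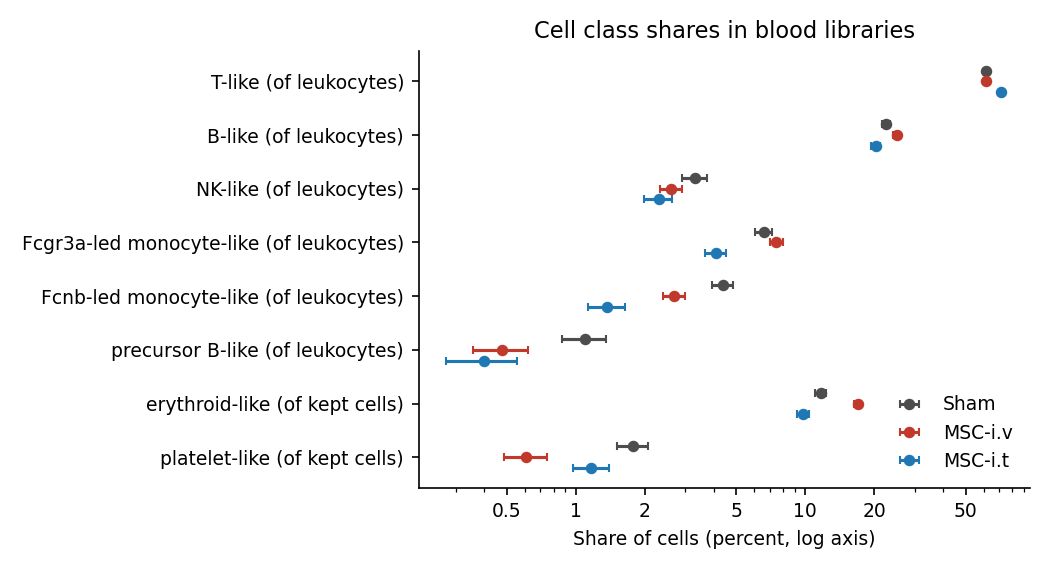
Share of cells in each class (percent, log axis) in Sham, MSC-i.v and MSC-i.t; points are the single library of each group and bars are exact 95% intervals for counting error. T-like points lie together near 61% in Sham and MSC-i.v, while the platelet-like share is 1.78% in Sham and 0.608% in MSC-i.v.

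Genes were compared within a class by summing UMIs over its cells. A gene was counted when both libraries together gave it at least 200 UMIs in the class, and it was called past a 1.5-fold difference of CPM. In T-like cells 51 of 7269 counted genes were higher in MSC-i.v (0.702%) and 30 were lower (0.413%), around a median log2 ratio of -0.03. T-like cells of Sham were deeper, with a median of 4999 UMIs against 3608.

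Most counted genes of the interferon gamma group were higher in T-like cells of MSC-i.v. The group holds GTPases, *Irf1* and other genes induced by interferon gamma. Of 16 members found, 8 were counted, 6 of these were higher in MSC-i.v past 1.5-fold (background 0.702%) and none was lower. Their median log2 ratio was 0.71, against -0.03 over all counted genes, and the summed level of all 16 found was 189 CPM in Sham, 315 CPM in MSC-i.v and 188 CPM in MSC-i.t.

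*Socs1*, a feedback inhibitor of cytokine signalling, was at 9.01 CPM in Sham (7.86 to 10.3, exact Poisson interval), 20.05 CPM in MSC-i.v (18.4 to 21.8) and 6.33 CPM in MSC-i.t. Its log2 ratio of MSC-i.v to Sham was 1.15 (0.92 to 1.39). *Irgm*, an immunity-related GTPase, was at 12.5 CPM in Sham (11.1 to 14.0), 26.6 CPM in MSC-i.v (24.7 to 28.7) and 11.9 CPM in MSC-i.t, a log2 ratio of 1.09. MSC-i.v was thus the high library of the 3 for both, with intervals clear of Sham. *Igtp*, another GTPase of that family, was at 38.7, 67.5 and 36.6 CPM in Sham, MSC-i.v and MSC-i.t. *Irf1* was at 56.8 CPM in Sham (53.9 to 59.9), 94.9 CPM in MSC-i.v (91.3 to 98.7) and 63.7 CPM in MSC-i.t, a log2 ratio of 0.74 (0.64 to 0.84).

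*Gbp2*, a guanylate-binding protein, was at 21.4 CPM in Sham and 34.2 CPM in MSC-i.v, and *Cd274*, which encodes the checkpoint ligand PD-L1, at 14.9 and 22.6 CPM. These complete the 6 members past the fold. *Irf8* (3.93 and 5.77 CPM) and *Gbp5* (26.7 and 35.5 CPM) had log2 ratios of 0.55 and 0.41. *Ifi47*, an interferon-inducible GTPase picked after its values were seen and on none of the lists, was at 41.9 and 70.2 CPM. In the list of MHC class I loading and immunoproteasome genes, 1 of 20 counted members was higher and 1 lower, with a median of 0.11. *Tap1*, a peptide transporter subunit for MHC class I loading, was at 79.7 and 124 CPM, while *Tap2*, its partner subunit, was lower in MSC-i.v, at 25.5 and 16.7 CPM.

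Free RNA also held these transcripts. *Irf1* was at 46.4 CPM in free RNA of Sham (29.1 to 70.3, 22 UMIs) and 48.9 CPM in MSC-i.v (40.6 to 58.4), and *Igtp* at 16.9 and 21.3 CPM. *Socs1* and *Irgm* had only 1 and 2 UMIs in the 474147 free UMIs of Sham, beside 16 and 51 in the 2494455 of MSC-i.v. The intervals overlapped for *Socs1* (0.0534 to 11.8 CPM and 3.67 to 10.4 CPM) and met at their edges for *Irgm* (0.511 to 15.2 and 15.2 to 26.9). At 1500 UMIs per cell, *Irf1* was seen in 7.37% of T-like cells of Sham and 12.2% of MSC-i.v, and in 0.0911% and 0.123% of erythroid-like cells. Without thinning, the shares were 23.3% and 24.6% of T-like and 1.09% and 1.06% of erythroid-like cells, which had a median of 12053 UMIs in Sham and 8173 in MSC-i.v. Hemoglobin was 91.8% and 92.1% of erythroid-like UMIs, which leaves few for any other gene after thinning.

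**Figure D2:**
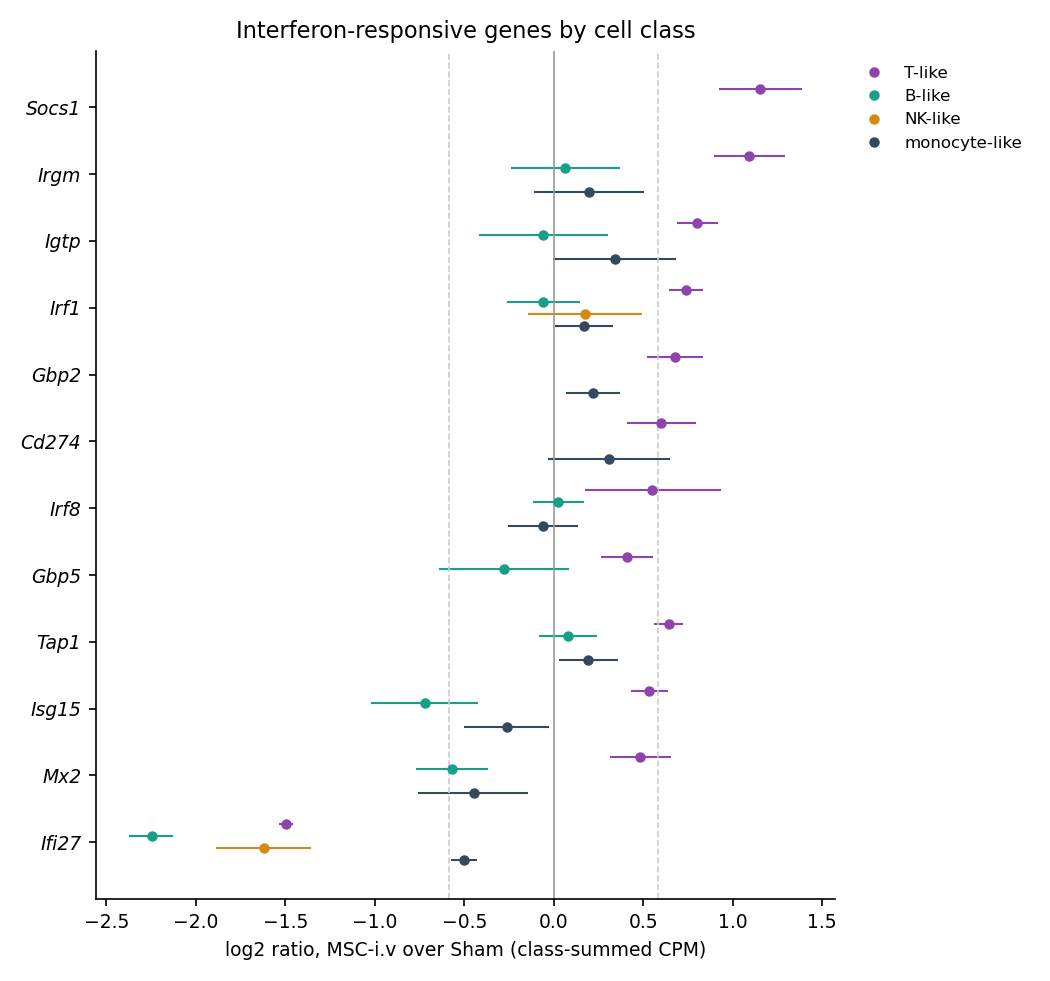
Log2 ratio of MSC-i.v to Sham for interferon-responsive genes in each cell class (colours) where the gene was counted, with exact 95% counting intervals; dashed lines mark 1.5-fold. In T-like cells the 8 interferon gamma members, from *Socs1* to *Gbp5*, lie above 0, while *Ifi27* lies at -1.50.

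Because *Irgm*, *Igtp* and *Socs1* had the 3 highest ratios of the list and are known targets of interferon, the 250 bases before their RefSeq start sites (assembly GRCr8) are shown, 5′ to 3′ on the gene's strand. Capitals mark GAAANNGAAA, searched on both strands, a form bound by IRF factors.
Irgm, chr10:33742579-33742828, minus strand: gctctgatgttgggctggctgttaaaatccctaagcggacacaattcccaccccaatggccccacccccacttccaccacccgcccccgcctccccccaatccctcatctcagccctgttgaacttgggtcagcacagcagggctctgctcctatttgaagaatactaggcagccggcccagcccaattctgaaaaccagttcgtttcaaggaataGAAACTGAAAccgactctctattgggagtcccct
Igtp, chr10:42874797-42875046, plus strand: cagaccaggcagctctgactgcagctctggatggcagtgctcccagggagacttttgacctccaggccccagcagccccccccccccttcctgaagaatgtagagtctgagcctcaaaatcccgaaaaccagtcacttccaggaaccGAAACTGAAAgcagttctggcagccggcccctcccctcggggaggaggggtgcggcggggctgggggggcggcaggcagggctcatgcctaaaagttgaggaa
Socs1, chr10:5389324-5389573, plus strand: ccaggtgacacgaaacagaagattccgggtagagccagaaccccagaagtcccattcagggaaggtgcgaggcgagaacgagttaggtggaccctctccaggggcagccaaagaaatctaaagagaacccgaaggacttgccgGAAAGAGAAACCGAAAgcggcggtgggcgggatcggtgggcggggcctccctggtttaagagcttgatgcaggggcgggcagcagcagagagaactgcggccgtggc
GAAANNGAAA lay 34 to 25 bases before the start of *Irgm*, 103 to 94 before *Igtp*, and as an overlapping pair in *Socs1*, at 107 to 98 and 101 to 92. Over all 33469 promoters of that length, 3.41% held it. Of the 8 counted members, 5 held it (*Gbp2*, *Gbp5*, *Igtp*, *Irgm* and *Socs1*). Neither *Irf1* nor *Ifi47* did. It was also in 11 of the 20 counted type I interferon genes with a promoter in the table, which are described next. *Ifi27* and *Bst2*, both lower in T-like cells of MSC-i.v, were among these 11. A match of letters is a description and shows no binding.

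Type I interferon genes gave a smaller and mixed picture in T-like cells. Of 38 members found 29 were counted, 3 were higher past the fold, 1 was lower, and 24 lay above 0, with a median log2 ratio of 0.28 against -0.03 over all genes. They included *Rtp4*, an interferon-induced receptor chaperone, at 14.7 CPM in Sham and 27.1 CPM in MSC-i.v, and *Dhx58*, the RNA sensor LGP2, at 5.53 and 9.12 CPM. MSC-i.t was at 12.6 CPM for *Rtp4*. *Isg15*, a ubiquitin-like antiviral protein, was at 50.8 CPM in Sham, 73.6 CPM in MSC-i.v and 35.4 CPM in MSC-i.t, a log2 ratio of 0.54 that did not reach the fold.

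*Ifi27*, a small mitochondrial protein gene and a common blood marker of interferon, moved against the rest. It was at 777 CPM in Sham (766 to 789), 275 CPM in MSC-i.v (269 to 282) and 432 CPM in MSC-i.t, a log2 ratio of -1.50. At 1500 UMIs per cell it was seen in 59.0% of T-like cells of Sham and 23.5% of MSC-i.v. Free RNA held it at 677 and 257 CPM, close to the level in the cells of each library. Hemoglobin, at 18.9% of free RNA in Sham and 24.2% in MSC-i.v, was 0.543% and 0.9155% of T-like UMIs. The part of free RNA in the *Ifi27* level of T-like cells was not tested. *Bst2*, which encodes the virus tether tetherin, was the next lowest of the 5 members below 0, at 67.6 and 48.4 CPM, with 99.1 and 47.7 CPM in free RNA. Because of *Ifi27*, the summed level of the list was lower in MSC-i.v, at 1426 CPM against 1710, while its median was higher.

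The interferon transcripts were counted per cell, over 53 genes of both lists without *Ifi27*, after thinning every T-like cell to 1500 UMIs. That kept 4535 cells of Sham, 6687 of MSC-i.v and 5820 of MSC-i.t, and left out 118, 241 and 98 shallower cells. The mean was 1.67 such UMIs per cell in Sham, 2.16 in MSC-i.v and 1.55 in MSC-i.t. Cells with 5 or more were 5.38% in Sham (4.74 to 6.08), 12.3% in MSC-i.v (11.5 to 13.1) and 4.57% in MSC-i.t (4.05 to 5.14). The cells at the cut of 5 or 1 below it numbered 308 in Sham and 689 in MSC-i.v.

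The ratio of MSC-i.v to Sham was largest in the middle of that range. Cells with at least 2 such UMIs were 43.2% in Sham and 50.01% in MSC-i.v, those with at least 8 were 1.46% and 3.72%, and those with at least 10 were 0.904% and 2.05%. Further out they came together: at least 15 UMIs were found in 0.397% and 0.479%, and at least 20 in 0.154% and 0.0748%. The intervals of the 2 libraries overlapped at both of these counts.

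**Figure D3:**
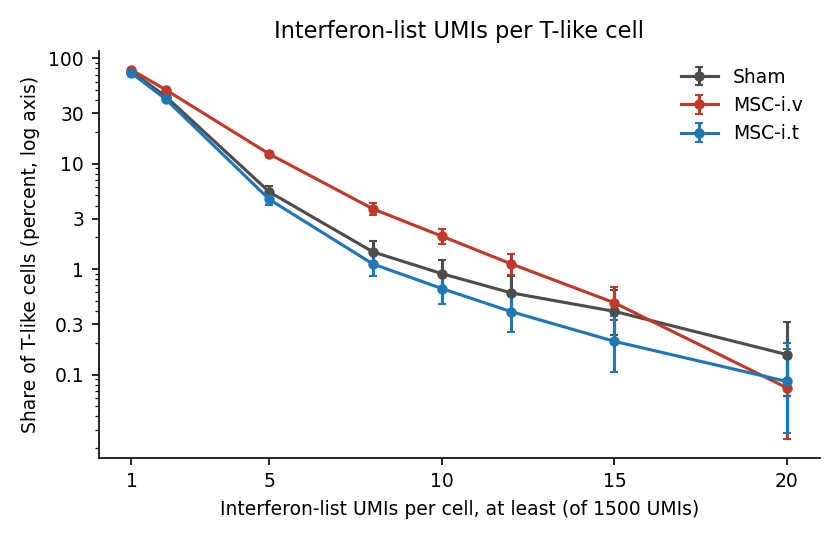
Percent of T-like cells (log axis) with at least the number of interferon-list UMIs on the horizontal axis, each cell thinned to 1500 UMIs, for Sham, MSC-i.v and MSC-i.t; bars are exact 95% counting intervals. MSC-i.v lies above Sham at 5 UMIs (12.3% against 5.38%) and meets it at 15 (0.479% against 0.397%).

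Part of these values lay in clusters that the same genes define. A pair of T-like clusters with *Isg15* as first or second leading gene held 218 cells in Sham, 630 in MSC-i.v and 228 in MSC-i.t, and since interferon genes lead them (*Igtp* too, in the larger), these numbers are no separate result. Without those clusters, an alternative chosen after seeing the data, 3 of the 8 interferon gamma members were higher past the fold (*Socs1*, *Irgm* and *Igtp*; background 0.531%) in place of 6, with a median of 0.50. *Irf1* was then at 55.5 CPM in Sham and 82.9 CPM in MSC-i.v, a log2 ratio of 0.58, just under the fold, and the type I median was 0.23.

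The interferon gamma medians lay above 0 in the 3 groups of T-like clusters described next, which leave out the *Isg15*-led cells. A cluster led by *Cd8b*, a CD8 co-receptor chain, had 24 of 4603 genes higher (0.521%), 19 lower (0.413%) and 2 of its 6 counted interferon gamma members higher, with a median log2 ratio of 0.51. A pool of 3 clusters with *Cd40lg*, the helper ligand CD40L, as first or second leading gene, which held 914, 716 and 1068 cells in Sham and 1646, 1676 and 643 in MSC-i.v, had 33 of 5963 genes higher (0.553%), 24 lower (0.402%) and 4 of 7 members, with a median of 0.63. The cluster led by *Foxp3*, the master factor of regulatory T cells, had 25 of 2399 genes higher (1.04%), 18 lower (0.75%) and 2 of 3 members, with a median of 0.80. *Irf1* was at 54.4 CPM in Sham and 72.0 CPM in MSC-i.v in *Cd8b*-led cells, 55.6 and 86.0 CPM in *Cd40lg*-led cells, and 58.9 and 102.5 CPM in *Foxp3*-led cells. Only the last 2 passed the fold for *Irf1*, and the difference between clusters was not tested.

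In the *Foxp3*-led cluster *Ubd* and *Il2ra* were higher. *Ubd*, the ubiquitin-like protein FAT10 and a gene picked after its value was seen, was at 18.95 CPM in Sham and 83.8 CPM in MSC-i.v, a log2 ratio of 2.15. *Il2ra*, the high-affinity interleukin-2 receptor chain CD25, was at 114 and 173 CPM. It was the only 1 past the fold of 8 counted regulatory and checkpoint members, whose median was 0.24. *Foxp3* itself was nearly level, at 89.0 and 95.2 CPM. *Tnfrsf9*, the costimulatory receptor 4-1BB, was at 21.4 and 56.7 CPM, from 192 UMIs in all, which is under the count needed for a call. *Il2ra*, *Foxp3* and *Tnfrsf9* are all among the 5 leading genes of the cluster, so its make-up rests in part on genes compared here. Over all T-like cells *Ubd* was at 3.24 and 11.95 CPM, a log2 ratio of 1.89, and free RNA held 0 and 16 UMIs of it.

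T cell lineage genes were close in both libraries. T-like cells with *Cd8a* or *Cd8b* and no *Cd4* transcript were 26.4% in Sham and 25.3% in MSC-i.v after thinning to 1500 UMIs, and cells with *Foxp3* 1.26% and 1.18%. By cluster, *Cd8b*-led cells were 26.6% of T-like cells in Sham and 24.6% in MSC-i.v (log2 ratio -0.11, from -0.20 to -0.02). *Foxp3*-led cells were 9.65% and 8.42% (-0.20, from -0.37 to -0.03), and *Cd40lg*-led cells 58.0% and 57.2% (-0.02, from -0.06 to 0.03). The level share of the *Cd40lg*-led pool hides unlike shifts of its 3 clusters. They held 914, 716 and 1068 cells in Sham and 1646, 1676 and 643 in MSC-i.v, in that order. The last was thus smaller in MSC-i.v, although T-like cells there numbered 6928 against 4653 in Sham. In T-like cells none of 14 counted cytotoxic members and none of 8 counted MHC class II members passed the fold. Their medians were -0.001 and -0.07. Of 5 chemokine receptors 1 did, *Ccr6*, a receptor of gut-homing and helper T cells, at 5.82 CPM in Sham and 8.89 CPM in MSC-i.v. *Cxcr4*, the receptor that holds cells in marrow, was at 39.6 and 55.5 CPM, and *Ccr7*, the lymph node homing receptor, at 17.0 and 16.2 CPM.

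The median log2 ratio of the heat shock chaperones lay above 0 in all 4 leukocyte classes, with *Hsph1* or *Dnaja1* highest in each. In T-like cells all 16 counted members lay above 0, with a median of 0.25 against -0.03, but 1 passed the fold. That was *Hsph1*, the HSP110 nucleotide exchange factor, at 22.2 CPM in Sham, 38.7 CPM in MSC-i.v and 29.0 CPM in MSC-i.t. *Dnaja1*, an HSP40 co-chaperone, was at 158, 236 and 180.3 CPM. The abundant *Hspa8* and *Hsp90ab1*, which encode constitutive HSP70 and HSP90, were at 444 and 586 CPM and at 1711 and 2007 CPM in Sham and MSC-i.v.

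Among genes that passed the naming filters given with the processing, *Hsph1* was also furthest up in B-like cells. *Hsph1* was there at 26.7 CPM in Sham, 50.1 CPM in MSC-i.v and 34.7 CPM in MSC-i.t, a log2 ratio of 0.91 (0.62 to 1.20). In monocyte-like cells it was at 34.6, 63.6 and 63.3 CPM, and *Dnaja1* at 129, 236 and 223 CPM. In NK-like cells *Dnaja1* was at 186 CPM in Sham and 316 CPM in MSC-i.v. For *Hsph1* and *Dnaja1* in monocyte-like cells, MSC-i.v and MSC-i.t thus both lay above Sham. The mix of that class differed too: *Fcgr3a*-led cells were 60.2% of it in Sham, 73.6% in MSC-i.v and 74.8% in MSC-i.t. The part of that mix in the monocyte-like chaperone values was not tested. In T-like and B-like cells the MSC-i.t value of *Hsph1* lay between those of Sham and MSC-i.v. B-like cells had a list median of 0.17 (1 of 15 counted members higher), NK-like cells one of 0.23 (1 of 6) and monocyte-like cells one of 0.33 (3 of 13), where *Chordc1*, an HSP90 co-chaperone, was the third, at 46.3 and 73.9 CPM. Among all genes, 0.229% were higher past the fold for B-like cells, 0.679% for NK-like cells and 0.715% for monocyte-like cells. The free level of *Hsph1* was 23.2 CPM in Sham and 26.1 CPM in MSC-i.v, and that of *Dnaja1* 131 and 186 CPM.

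Among genes that passed the naming filters, those furthest down in T-like cells after *Ifi27* were *Cirbp*, *Gstt2* and *Cry2*. *Cirbp*, a cold-inducible RNA-binding protein, was at 59.3 CPM in Sham, 37.2 CPM in MSC-i.v and 51.2 CPM in MSC-i.t, a log2 ratio of -0.67 (-0.79 to -0.56). *Rbm3*, its close relative, was at 384 and 359 CPM and did not pass the fold. *Cry2*, a repressor of the circadian clock, was at 24.5 CPM in Sham, 15.7 CPM in MSC-i.v and 18.05 CPM in MSC-i.t, and *Gstt2*, a glutathione transferase, at 11.3 and 7.16 CPM in Sham and MSC-i.v.

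The *Hsph1* promoter (GRCr8) is shown because the gene had the highest ratio among the counted chaperones in 3 classes. Capitals mark GAANNTTCNNGAA, a heat shock element of 3 repeats, found here on the reverse strand 36 to 24 bases before the start.
Hsph1, chr12:10427118-10427367, plus strand: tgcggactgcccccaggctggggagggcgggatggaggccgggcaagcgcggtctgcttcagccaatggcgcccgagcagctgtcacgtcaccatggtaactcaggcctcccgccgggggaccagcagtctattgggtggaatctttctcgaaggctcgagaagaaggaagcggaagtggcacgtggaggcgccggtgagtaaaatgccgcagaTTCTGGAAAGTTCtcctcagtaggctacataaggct
That motif was in 0.663% of all promoters and in 4 of the 14 counted T-like chaperones with a promoter in the table (*Hspa8*, *Hspd1*, *Hspe1* and *Hsph1*).

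**Figure D4:**
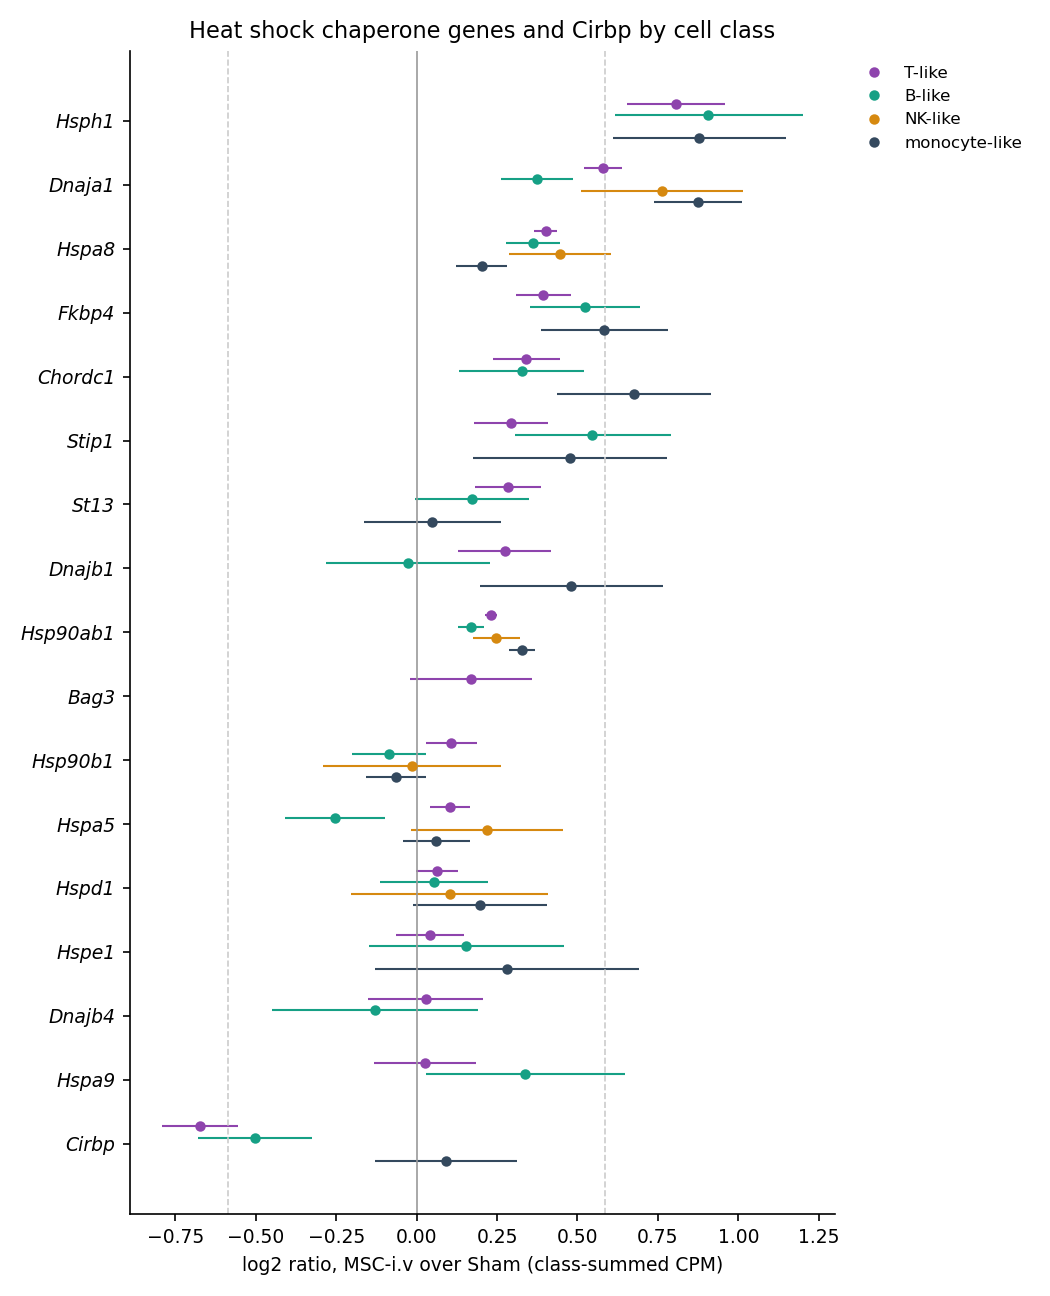
Log2 ratio of MSC-i.v to Sham for the counted heat shock chaperones in 4 cell classes (colours), with exact 95% counting intervals, and for *Cirbp* below them; dashed lines mark 1.5-fold. All 16 T-like members lie above 0, and *Hsph1* lies highest in T-like (0.81), B-like (0.91) and monocyte-like cells (0.88).

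Transcripts foreign to T cells also differed in T-like cells. Hemoglobin transcripts were 0.543% of their UMIs in Sham, 0.9155% in MSC-i.v and 0.417% in MSC-i.t, and 3 of 16 counted erythroid members were higher past the fold (*Hbb*, *Hba-a2* and *Alas2*), with a median of 0.22. Of 6 neutrophil granule genes 3 were lower, with a median of -0.53, and *S100a8*, a calprotectin subunit, was at 18.3 and 10.7 CPM against 639 and 319 CPM in free RNA. Of 9 platelet genes none passed the fold and 8 lay below 0, with a median of -0.37. Free RNA had the same order, with neutrophil granule genes at a summed 7749 CPM in Sham and 5400 CPM in MSC-i.v. The part of such RNA in the other T-like results was not tested.

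In monocyte-like cells 32 of 4477 counted genes were higher in MSC-i.v (0.715%) and 60 were lower (1.34%), and platelet transcripts were among the lower genes. Of 10 counted platelet genes 8 were lower and none higher, with a median log2 ratio of -0.83 against 0.02 over all genes. The summed level of all listed platelet genes found was 2478 CPM in Sham, 1382 CPM in MSC-i.v and 2551 CPM in MSC-i.t, against 2320 and 1804 CPM in free RNA of Sham and MSC-i.v. *Pf4*, the chemokine platelet factor 4, was at 1075 CPM in Sham, 625 CPM in MSC-i.v and 1167 CPM in MSC-i.t. *Nrgn*, neurogranin, was at 307, 142 and 297 CPM, and *Npy*, the neuropeptide Y gene that rat platelets express, at 85.1, 40.3 and 106 CPM. MSC-i.v was the low library in each case.

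*Pla2g2a*, a secreted phospholipase A2 of platelets, was at 445 CPM in Sham, 200.4 CPM in MSC-i.v and 402 CPM in MSC-i.t in monocyte-like cells. Within the *Fcgr3a*-led cluster, with 18 of 2980 genes higher (0.604%) and 24 lower (0.805%), it was at 164 CPM in Sham and 61.3 CPM in MSC-i.v, and all 4 counted platelet genes were lower, with a median of -1.17. Within the *Fcnb*-led cluster, with 15 of 2760 higher (0.543%) and 27 lower (0.978%), it was at 639 and 386 CPM, and 3 of 10 platelet genes were lower, with a median of -0.38. The platelet share of kept cells was also lower in MSC-i.v, 0.608% against 1.78%. Whether this RNA sat on monocytes, in doublets or in free RNA was not tested.

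**Figure D5:**
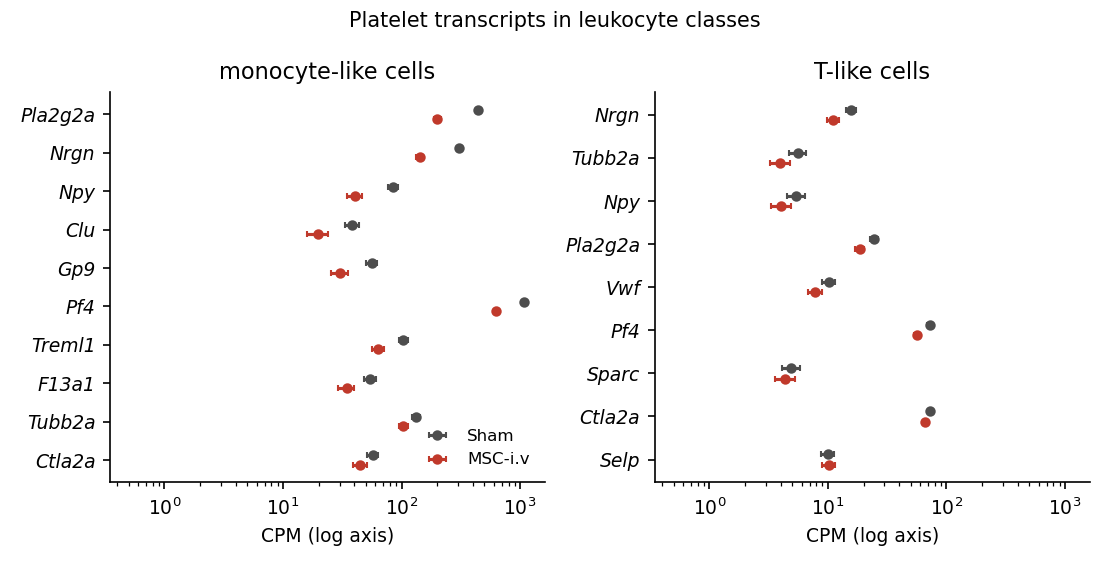
CPM (log axis) of the counted platelet genes in monocyte-like and T-like cells of Sham and MSC-i.v, with exact 95% Poisson intervals. MSC-i.v lies below Sham for all 10 genes in monocyte-like cells and for 8 of 9 in T-like cells.

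The calprotectin genes had the largest difference named in monocyte-like cells. *S100a9* was at 784 CPM in Sham, 147 CPM in MSC-i.v and 624 CPM in MSC-i.t, a log2 ratio of -2.42, and *S100a8* at 1132, 334 and 780.5 CPM, a ratio of -1.76. Both proteins form the alarmin of neutrophils and classical monocytes. Within the *Fcnb*-led cluster, *S100a8* was at 1901 CPM in Sham and 767 CPM in MSC-i.v and *S100a9* at 1313 and 329.8 CPM, so the difference also stood inside the cluster that carries most of this RNA. Free RNA held *S100a8* at 639 and 319 CPM and *S100a9* at 567 and 265 CPM. These were the only 2 of 12 counted S100 and alarmin genes past the fold, with a list median of -0.34, and the only 2 of 7 neutrophil granule genes, with a median of -0.48. *S100a4*, the most abundant, was at 4765 and 4858 CPM.

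On the higher side of monocyte-like cells stood *Cd4*, which rat monocytes express, at 34.05 CPM in Sham, 66.1 CPM in MSC-i.v and 63.7 CPM in MSC-i.t. It was mostly in the *Fcgr3a*-led cluster, at 74.7 and 108 CPM in Sham and MSC-i.v, where the log2 ratio was 0.53, and the larger share of that cluster adds to the ratio of 0.96 over both. *Ankrd33b* was at 20.2 CPM in Sham and 36.9 CPM in MSC-i.v. *Slc40a1*, the iron exporter ferroportin, was the gene furthest down once markers of other classes were set aside, at 27.9 and 12.0 CPM. The part of the cluster mix in the *Ankrd33b* and *Slc40a1* values was not tested. *Irf1* was at 118 and 132 CPM in monocyte-like cells and did not pass the fold. Of 24 counted type I members 1 was lower (*Bst2*, 499 and 255 CPM) and none higher, with a median of -0.02.

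None of 7 counted MHC class II members passed the fold in monocyte-like cells, with a median of -0.30 that turned to 0.48 when 6% of barcodes were removed as doublets, so no direction is given. *RT1-Bb*, a class II beta chain with close paralogs, was at 38.9 and 26.4 CPM there, against 35.9 and 65.8 CPM in free RNA. Of 7 cytotoxic members 1 was lower, *Ccl5*, a T and NK chemokine, at 49.8 and 25.6 CPM against 770 and 531 CPM in free RNA. T cell markers in the class summed to 192 and 119 CPM.

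In B-like cells 11 of 4798 counted genes were higher in MSC-i.v (0.229%) and 59 were lower (1.23%), around a median of -0.04. *Cd24*, a surface glycoprotein high on immature B cells, was at 129 CPM in Sham, 58.6 CPM in MSC-i.v and 71.6 CPM in MSC-i.t, a log2 ratio of -1.13. The mix of clusters differed too: the *Cd24*-led cluster, where the gene is highest, was 26.1% of B-like cells in Sham (24.0 to 28.2) and 12.7% in MSC-i.v (11.5 to 14.0), a share that rests in part on *Cd24* itself. The gene was lower inside both B-like clusters. The larger cluster, called *Mef2c*-led, had the MHC class II genes *RT1-Db1*, *RT1-Da* and *RT1-Bb* ahead of *Mef2c* among its leading genes. There 17 of 4124 genes were higher (0.412%) and 22 lower (0.533%), and *Cd24* was at 54.05 and 29.0 CPM. In the *Cd24*-led cluster, where *Sspn* was the first leading gene, 7 of 1549 were higher (0.452%) and 32 lower (2.07%). *Cd24* was there at 312 and 207 CPM.

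Among genes that passed the naming filters, *Stambpl1*, *Myadm* and *Hmces* came next after *Cd24* on the lower side of B-like cells. *Ifi27* and *Bst2*, which those filters left out, were further down and are given below. *Stambpl1*, a deubiquitinase, was at 24.7 and 12.5 CPM in Sham and MSC-i.v. *Myadm*, a membrane protein of haematopoietic cells, was at 77.0 and 40.1 CPM. *Hmces*, a shield of abasic DNA sites, was at 44.6 and 23.3 CPM. On the higher side, after *Hsph1*, stood *Rab2a*, a GTPase of early secretory traffic, at 33.7 CPM in Sham, 53.4 CPM in MSC-i.v and 17.3 CPM in MSC-i.t. *Scd*, a fatty acid desaturase, was at 22.2 and 33.8 CPM and *Ubr2*, a ubiquitin ligase, at 18.1 and 27.3 CPM in Sham and MSC-i.v. For *Rab2a* the MSC-i.t library lay below Sham and the MSC-i.v library above it.

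Interferon genes gave other values in B-like cells, and the difference between classes was not tested. *Irf1* was at 70.6 CPM in Sham and 67.9 CPM in MSC-i.v, *Irgm* at 30.5 and 31.9 CPM and *Igtp* at 23.0 and 22.1 CPM, and none of them passed the fold. Of 18 counted type I members 3 were lower past the fold and none higher, with a median of -0.12. These were *Ifi27*, at 497 CPM in Sham, 105 CPM in MSC-i.v and 258 CPM in MSC-i.t, *Bst2*, at 65.3, 23.3 and 53.3 CPM, and *Isg15*, at 42.2 CPM in Sham and 25.6 CPM in MSC-i.v. *Ifi27* and *Bst2* were lower in free RNA of MSC-i.v too, as given above, while *Isg15* was at 38.0 and 43.7 CPM there.

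None of 11 counted MHC class II genes and none of 6 cytotoxic genes passed the fold in B-like cells, with medians of 0.03 and -0.05. *RT1-Bb* came close, at 748 CPM in Sham, 1122 CPM in MSC-i.v and 625 CPM in MSC-i.t, a log2 ratio of 0.58. It is a leading gene of the *Mef2c*-led cluster, which was 73.9% of B-like cells in Sham and 87.3% in MSC-i.v. Inside that cluster it was at 860.5 and 1217 CPM, a log2 ratio of 0.50. Of 10 counted S100 and alarmin genes 2 were lower, with a median of -0.30. One was *Crip1*, a small LIM-domain protein, at 949 and 613 CPM, against 1641 and 1181 CPM in free RNA, and the other *S100a8*, at 25.2 and 13.7 CPM. *Cirbp* was at 108 and 76.0 CPM, a log2 ratio of -0.50.

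NK-like cells were few, 250 in Sham and 295 in MSC-i.v, with 1217759 and 1015379 UMIs. Of 1325 counted genes 9 were higher (0.679%) and 12 lower (0.906%). *Il18*, an inflammatory cytokine that drives interferon gamma release, was at 85.4 CPM in Sham (69.8 to 103.5), 174 CPM in MSC-i.v (150 to 202) and 109 CPM in MSC-i.t, a log2 ratio of 1.03 (0.67 to 1.39). Free RNA held it at 12.7 and 10.8 CPM, far below the NK-like level. *Abhd17a*, a depalmitoylase, was at 80.5 and 143 CPM and *Nsd3*, a histone methyltransferase, at 83.8 and 135 CPM.

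On the lower side of NK-like cells, *Ly49i2*, a receptor for MHC class I, was at 141 CPM in Sham, 70.9 CPM in MSC-i.v and 54.05 CPM in MSC-i.t, with the treated libraries both below Sham. Ly49 genes are near-identical, so the assignment of its reads is uncertain. *Rpa3*, a subunit of the single-strand DNA binding complex RPA, was at 117 and 67.0 CPM, *Mat2b*, a regulator of methionine adenosyltransferase, at 117 and 71.9 CPM, and *Add3*, an adducin of the membrane skeleton, at 177 and 110.3 CPM. Cytotoxic genes were nearly level: of 15 counted members 1 was higher, *Faslg*, the death ligand FasL, at 92.0 and 142 CPM, with a median of -0.01. *Prf1*, perforin, was at 2104 and 2111 CPM and *Gzmb*, granzyme B, at 338 and 358 CPM. Of 5 counted type I members 2 were lower, *Bst2* (134 and 51.2 CPM) and *Ifi27* (451 and 147 CPM), and no MHC class II gene reached 200 UMIs. Erythroid markers in NK-like cells summed to 3442 CPM in Sham and 10560 CPM in MSC-i.v.

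In erythroid-like cells 9 of 917 counted genes were higher (0.981%) and 38 lower (4.14%), around a median of -0.12. The values below are not centred on that median, and centring takes the share of called genes that were higher from 19.1% to 60%. *Glrx5*, which serves iron-sulfur cluster assembly, was at 222 CPM in Sham, 351 CPM in MSC-i.v and 129.6 CPM in MSC-i.t, and *Tfrc*, the transferrin receptor, at 8.26 and 12.9 CPM in Sham and MSC-i.v. *Plekhb1* was at 4.88 and 8.09 CPM and *Klhl42*, a ubiquitin ligase adaptor, at 6.08 and 9.85 CPM. *Tfrc* is lost as red cells mature. *Glrx5* was also higher in T-like cells, at 25.2 and 44.5 CPM, and in monocyte-like cells, at 16.1 and 27.9 CPM, beside 54.8 and 120 CPM in free RNA. The mix of erythroid-like clusters differed, as given above, and its part in these values was not tested.

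Among genes that passed the naming filters, *Clic2*, *Ifit1bl*, *Gpcpd1* and *Ibtk* were furthest down in erythroid-like cells. *Clic2* was at 9.91 and 5.22 CPM and *Ifit1bl* at 165 and 87.1 CPM (336 and 191 CPM within the cluster it leads). *Gpcpd1*, a glycerophosphodiesterase, was at 14.0 and 7.70 CPM and *Ibtk* at 10.8 and 6.05 CPM. *Isg15* was higher, at 18.2 and 33.6 CPM, the only one of 8 counted type I members past the fold, with a median of 0.17 that turned to -0.08 among genes above free RNA. All 9 mitochondrially encoded genes lay below 0, with 1 past the fold (*Mt-nd3*, 11.04 and 6.53 CPM) and a median of -0.37, but the median was 0.24 with no doublets removed, so no direction is given. With no doublets removed, 253 genes were higher and 16 lower in this class, so its counts rest on doublet removal.

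Transcripts that mark mesenchymal stromal cells had few UMIs. Of 9 such markers, the collagens *Col1a1* and *Col3a1* among them, 7 had no UMI in either library, which allows a share of up to 0.0319% of Sham cells and 0.0207% of MSC-i.v cells with a UMI. That limit is on cells with a UMI, not on cells that express the gene. *Pdgfrb*, a growth factor receptor, had 5 UMIs in Sham and 5 in MSC-i.v, and *Fbn1*, fibrillin, had 68 and 59. The reference was the rat genome, so transcripts of MSCs from another species would be counted only where they aligned to it.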

How the data were processed

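Blood libraries of 4 groups, 1 library each, were deposited as counts: UMI matrices made by the authors with Cell Ranger 4, per the file headers, over 25340 genes and 6794880 barcodes, on the rat build mRatBN7.2, per the submitters' processing notes. The labels' extraction protocol describes bulk RNA, so the droplet preparation is not given in the sources used here. Rows with the same symbol were summed. Barcodes with at least 500 UMIs, 200 genes and at most 20% mitochondrial UMIs were kept. Doublets were ranked by Scrublet score and removed at 0.8% of barcodes per 1000 kept, because the automatic threshold marked 0% of Sham and 6.99% of MSC-i.v. Cells were clustered in scanpy 1.11.5 (2000 variable genes, 30 principal components, 15 neighbours, Leiden resolution 1, leidenalg 0.10.2) into 24 clusters, named from marker lists with a score margin of 0.5 set after seeing the data. Clusters under 3 detected markers, within the score margin of another class or with conflicting leading genes stayed unnamed. A named cluster is called led by a gene among its first 5 leading genes, which need not be the first.

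UMIs were summed per class and given as CPM. Genes with at least 200 UMIs over both libraries were counted, and a 1.5-fold ratio was the call. The text names, per class, the top 4 and bottom 4 genes by ratio that passed the naming filters. These asked for a UMI in at least 5% of cells of either library. The class level had to reach free RNA in the library where the gene was higher. Markers of other classes and genes without their own symbol were left out. So were mitochondrial, ribosomal protein, hemoglobin, immunoglobulin, T cell receptor segment and sex-linked genes. In each list described, the text names the 2 highest and 2 lowest members and the defining gene. Lists described had at least 5 counted members and a median at least 0.2 from the class median, beside the type I interferon, MHC class II and cytotoxic lists. Inside clusters, lists were followed whatever their number of counted members. Of 793 listed genes, 753 were found by symbol, 9 through RefSeq and 31 were not found. Intervals are exact at 95% (Clopper-Pearson, Poisson, and conditional binomial for ratios; scipy 1.17.1). One result is not reported here. The ratio code was tested on simulated data. The members and lists were chosen with earlier results of these data known. Alternatives covered filters, doublets, clustering, thinning, scaling and free RNA.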

Additional observations from a re-analysis of the deposited data

Results flagged for a closer look

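A total of 3 of 50 genes looked at lay at least 0.3 (log2) above Sham in one class of MSC-i.v and at least 0.3 below it in another. With 1 library a side, the difference between classes was not tested. *Isg15*, the ubiquitin-like antiviral gene, had a log2 ratio of MSC-i.v to Sham of 0.54 in T-like cells, -0.72 in B-like cells and 0.89 in erythroid-like cells. *Mx2*, an interferon-induced GTPase, was at 0.49 in T-like cells, -0.57 in B-like cells and -0.45 in monocyte-like cells. *Tfrc*, the transferrin receptor, was at -0.45 in T-like cells and 0.64 in erythroid-like cells.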

How the results depend on the processing

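No paired analysis was possible because each group had 1 library. With 1 library a side, no value has a replicate spread, intervals cover counting error only, and low genes cannot be compared at this depth. A value counted as kept when it moved by less than 0.1 for a list median, by less than 0.2 for the log2 ratio of a single gene, by less than 1.5 times for a count of genes, or within its counting interval for a share. A list median could be labelled reversed only where the list met the rule for description. A first tally held class shares, counts of genes, medians of lists that met that rule, and the CD8 and interferon-UMI shares of T-like cells. In it 342 values under an alternative were kept, 62 moved and 7 reversed. The second held single genes, percentages of called genes that were higher, other detection shares of T-like cells and medians of other lists. In that tally 668 were kept and 43 moved. The cause was not tested, except that count minima and folds change how many genes pass by construction. The interferon gamma median of T-like cells moved under 2 alternatives, to 0.81 after thinning and to 0.50 without the *Isg15*-led clusters, chosen after seeing the data, which also took the neutrophil granule median of T-like cells to -0.66. The type I median of T-like cells was kept under every alternative run.

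With a 2-fold threshold, genes past it numbered 6 in T-like, 7 in B-like, 8 in NK-like, 11 in monocyte-like and 1 in erythroid-like cells. With a minimum of 50 UMIs per gene, in the same order, they numbered 311, 348, 287, 410 and 282, and with 500 they numbered 40, 24, 5, 40 and 18. The minimum of 50 also gave medians of -0.31 for cytotoxic genes of monocyte-like cells and 0.12, reversed, for type I genes of NK-like cells. The minimum of 500 gave 0.16 for chemokine receptors and -0.77 for neutrophil granules in T-like cells, 0.053, reversed, for cytotoxic genes and 0.20 for heat shock in monocyte-like cells, and 0.35 for heat shock in NK-like cells.

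Thinning each cell to 1500 UMIs left 6 genes past the fold in NK-like, 9 in erythroid-like and 37 in monocyte-like cells. It gave heat shock medians of 0.36 in B-like and 0.55 in NK-like cells, and 0.12 for erythroid genes and 0.81 for interferon gamma genes in T-like cells. In monocyte-like cells it gave -0.62 for neutrophil granules, -1.04 for platelet genes and 0.058, reversed, for cytotoxic genes. Counting T-like cells with at least 2 interferon UMIs in place of 5, chosen after seeing the data, gave a log2 ratio of 0.21 where the main value was 1.19.

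Keeping only genes at or above free RNA in both libraries left 47 past the fold in T-like, 42 in B-like, 12 in NK-like and 7 in erythroid-like cells. The medians were then -0.015 for MHC class II and -0.070 for cytotoxic genes in monocyte-like cells, 0.16 for chemokine receptors and -0.15 for platelet genes in T-like cells, and -0.077, reversed, for type I genes in erythroid-like cells. With free RNA taken from barcodes of 50 to 200 UMIs, chosen after seeing the data, the counts were 42 in B-like, 12 in NK-like, 9 in erythroid-like and 56 in monocyte-like cells. The medians were -0.015, -0.070 and -0.35 for MHC class II, cytotoxic and neutrophil granule genes of monocyte-like cells, 0.16 for chemokine receptors and 0.047 for type I genes of erythroid-like cells.

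With no doublets removed, 269 genes passed the fold in erythroid-like cells, where the mitochondrially encoded median reversed to 0.24 and the type I median was 0.29. Monocyte-like medians were then -0.041 for MHC class II, 0.069, reversed, for cytotoxic and -0.61 for platelet genes, the NK-like type I median was -0.10, and the log2 share ratio of *Fcnb*-led cells was -0.43. With 6% removed from each library, that ratio was -0.41, the monocyte-like medians were 0.48, reversed, for MHC class II and -0.55 for platelet genes, the B-like S100 median was -0.20 and the erythroid-like mitochondrial median -0.067. Centring ratios on the class median gave -0.26 for that list and 0.28 for type I genes in erythroid-like cells. Over all kept cells, the log2 share ratio of T-like cells was -0.048.

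Scaling moved the share of called genes that were higher. Centring took it from 63.0% to 75% in T-like, from 15.7% to 27.5% in B-like and from 19.1% to 60% in erythroid-like cells. Totals without hemoglobin and mitochondrial UMIs took it from 42.9% to 31.2% in NK-like and to 34.9% in erythroid-like cells.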
